A study of Homo sapiens with 14 samples.

Results

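Antisense RNA genes are transcribed from the DNA strand opposite to another gene, the sense gene, whose name they carry with the ending AS and a number. The 235 antisense genes described here were chosen by measured values: their symbol ends in AS1, AS2 or AS3, they lie on chromosomes 1 to 22, and at least 1 of 6 group means lies above 2 on a log2 scale of RPM (reads scaled to a common library size). They are 235 of 1023 such symbols in the table, beside 13698 genes of any kind that pass the same limit and 35718 symbols in all; ZNF528-AS1 was left out by the same rule. Because a single high group was enough for a gene to enter, the levels and their highest group are given as a description of the chosen genes.

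The cells were K562, a human cell line established from chronic myeloid leukaemia, with dCas9-KRAB, an inactive Cas9 fused to a repressor domain with which a guide RNA silences a promoter. Guides were directed against TASOR, TASOR2, MPP8 or PPHLN1, and the controls were untransduced dCas9-KRAB cells and cells with a guide against AAVS1 (sgAAVS1), a locus commonly used as a neutral target. RNA from transduced cells was collected 7 days after transduction, and the labels name 2 guides each for TASOR, MPP8 and PPHLN1 and 3 for TASOR2, with 2 untransduced and 3 sgAAVS1 replicates. The table holds 1 mean per group, so no SD, n or p over libraries exists, and guides or replicates that differ within a group cannot be seen. The value after each ± is how far the 95% counting interval of a difference reaches to either side. It covers counting error only, at 5857938 to 7406967 reads per library.

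TASOR is a subunit of HUSH, a complex that silences transposons and other genes through repressive chromatin, and TASOR2 takes its place in HUSH2. MPP8, which binds methylated histone H3, and Periphilin, the product of PPHLN1, act in both complexes. Many antisense genes start beside the promoter of their sense gene and are read away from it, while others begin inside or beyond the sense gene and cross its exons. Their RNAs are mostly noncoding, of low abundance and often nuclear, and libraries from ribosome-depleted total RNA contain them whether or not they carry a poly(A) tail.

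Every knockdown held the lowest of the 6 means of its own target. FAM208A, the table's name for TASOR, differed from sgAAVS1 by -3.93 ± 0.25 in TASOR cells, FAM208B (TASOR2) by -1.42 ± 0.11 in TASOR2 cells, MPHOSPH8 (MPP8) by -1.83 ± 0.18 in MPP8 cells and PPHLN1 by -1.29 ± 0.15 in PPHLN1 cells. All 10 erythroleukaemia markers of K562 (globin genes and GATA1 among them) had means above 2 in the 6 groups, as did 1 of 4 monocytic genes (LYZ). Over the 13698 genes the median difference from sgAAVS1 was 0.16 in TASOR, 0.08 in TASOR2, 0.12 in MPP8, 0.17 in PPHLN1 and 0.04 in untransduced cells, so medians of the antisense genes are read against these.

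Among the 235 genes, 222 end in AS1, 13 in AS2 and 0 in AS3. GENCODE release 29, matched for 234 of them, types 161 as antisense, 33 as lincRNA, 28 as processed transcript and 6 as protein coding, whose levels may include a coding transcript. A sense gene was found in the table for 232. In 181 pairs the 2 gene spans overlap on opposite strands, in 50 pairs the genes are divergent without overlap, and in 105 pairs the 2 starts lie within 1000 bases of each other. RefSeq now names 38 of the 235 with the ending DT, for divergent transcript. Exons of 169 antisense genes share bases with exons on the opposite strand, and in 14 this is over 50% of their exon length. The library kit keeps strand, but no source used here states whether strand was used in counting. Of 172 antisense genes of the table for which reads of the opposite-strand exons alone would give a value above 2, 86 (50%) lay at least 2 log2 units below that value. The value takes reads to be spread evenly over all annotated exons, and the 172 include genes below the limit of 2. The check therefore cannot show how strand entered the counts of the 235 members.

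The mean level over the 6 groups had a median of 3.87 and spanned 1.23 to 8.65 on the log2 RPM scale. Means above 6 were held by 26 genes, means above 3 and up to 6 by 139, and means of 3 or below by the rest. In 194 genes every group mean was above 2, and 7 genes were above 2 in 1 group. OIP5-AS1, a conserved noncoding RNA also called cyrano, had 8.65 in TASOR, 8.63 in TASOR2, 8.61 in MPP8, 8.69 in PPHLN1, 8.74 in untransduced and 8.56 in sgAAVS1 cells. AFAP1-AS1 had 8.43, 8.06, 8.23 and 8.47 in TASOR, TASOR2, MPP8 and PPHLN1 cells, 8.08 in untransduced and 7.98 in sgAAVS1 cells. The next 6 by mean were PSMD5-AS1 (7.90), LRRC75A-AS1 (7.86), TP73-AS1 (7.80), GABPB1-AS1 (7.59), FGD5-AS1 (7.55) and DLGAP1-AS2 (7.20). Per kilobase of exon, LRRC75A-AS1, a host of small nucleolar RNAs, had the highest level of all members, 5.95 log2 RPM per kilobase, against 4.98 for OIP5-AS1 and 3.48 for GABPB1-AS1. These 8 spanned 0.15 to 0.51 log2 units between their lowest and highest group, and neither they nor any of their sense genes was called in a comparison with sgAAVS1, between TASOR and TASOR2, or between MPP8 and PPHLN1.

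The limit of 2 cut through a continuous run of levels. SMC5-AS1 (highest group mean 2.01, in PPHLN1), ARHGAP5-AS1 (2.03, in TASOR) and OXCT1-AS1 (2.03, in PPHLN1) were just inside it. SRP54-AS1 (1.98, in untransduced cells), CRYM-AS1 (1.97, in PPHLN1) and BCDIN3D-AS1 (1.96, in untransduced cells) were just outside.

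Between its lowest and highest group a member spanned 0.59 log2 units at the median, against 0.36 over all 13698 genes, and 36 members spanned at least 1. Counting error widens this span at low levels, and it was not compared between members and other genes of the same level. TASOR2 was the lowest group in 142 members and sgAAVS1 in 51. TASOR was the highest group in 100 and PPHLN1 in 61, and 1 member was highest in sgAAVS1. Such counts were not made over all genes, whose median difference from sgAAVS1 was also positive in every other group. In TASOR2 the median difference from sgAAVS1 was -0.13 over the antisense genes and 0.08 over all genes, and 83 of 235 members (35.3%) lay above 0, against 61.4% of all genes. This gap varied with level. Among genes with a mean of 2 or less the median was -0.62 in 18 members and -0.07 in 517 other genes. Genes of this band entered through a group above 2, so low values in their other groups follow in part from the limit. Above 2 and up to 3 the median was -0.15 in members and -0.08 in other genes, and above 3 and up to 4, -0.21 and -0.05. Above 4 and up to 6 it was -0.04 and 0.08, and above 6, -0.04 and 0.10. In bulk RNA, fewer cells with a transcript and less of it per cell cannot be told apart. The medians over antisense genes were 0.29 in TASOR, 0.15 in MPP8, 0.22 in PPHLN1 and 0.10 in untransduced cells. Relative to all genes the members' median was 0.13 in TASOR, -0.20 in TASOR2, 0.03 in MPP8, 0.05 in PPHLN1 and 0.06 in untransduced cells. The TASOR value was 0.04 against untransduced cells and 0.05 with quantile normalization, while the TASOR2 value was -0.27 and -0.12. TASOR minus TASOR2, which shares no control, had a median of 0.41 over the members and 0.07 over all genes.

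**Figure D1:**
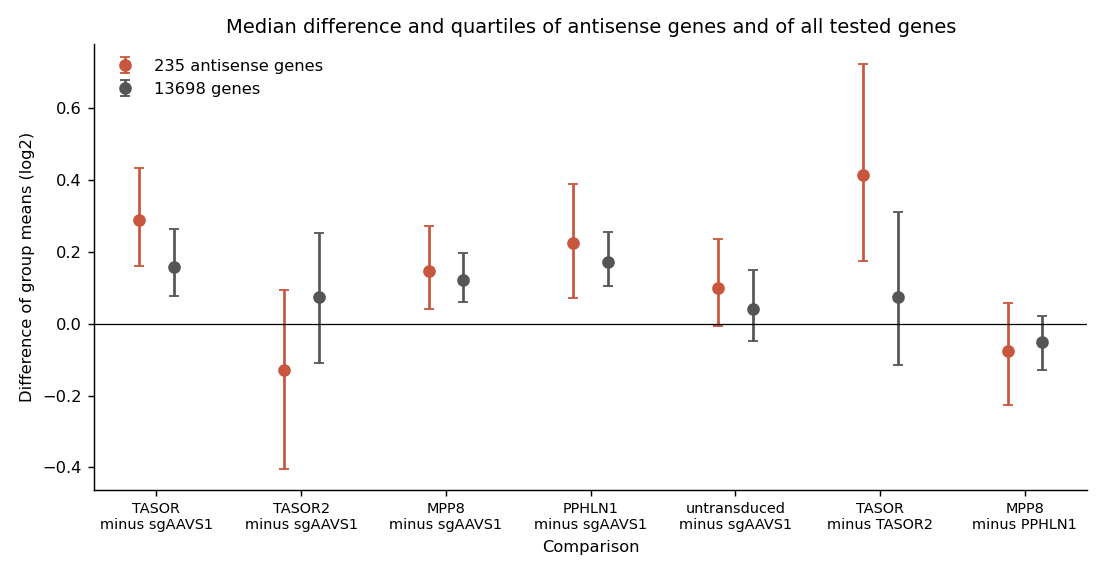
Median (points) and quartiles (bars) of the difference of group means, in log2 units on the vertical axis, for the 235 antisense genes (left of each pair) and all 13698 tested genes (right), in 7 comparisons. In TASOR2 minus sgAAVS1 the median was -0.13 for antisense genes and 0.08 for all genes, and in TASOR minus TASOR2 it was 0.41 and 0.07.

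Genes were called higher or lower where 2 group means lay at least 1 log2 unit apart, the higher mean was above 2 and their counting interval excluded 0. Of the 235 antisense genes, 206 were called in none of 11 comparisons and 29 in at least 1. The share of all genes called in at least 1 was not counted, so this count has nothing to be set against. Shares for each comparison follow. Against sgAAVS1, TASOR had 2 members higher (0.851%, against 0.548% of all genes) and 0 lower (0.0657% of all genes). TASOR2 had 1 higher (0.426%, against 0.986%) and 7 lower (2.98%, against 0.803%), a share that varies with level. MPP8 had 2 higher (0.851%, against 0.73%) and 0 lower (background 0.0292%), and PPHLN1 had 5 higher (2.13%, against 1.28%) and 0 lower (background 0.19%). Untransduced cells had 0 members higher (background 0.139%) and 0 lower (background 0.0584%). The shares of higher members in TASOR, MPP8 and PPHLN1 were near those of all genes, each resting on at most 5 genes.

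Against untransduced cells, TASOR had 1 member higher (0.453% of all genes were) and 0 lower (0.161%), MPP8 1 higher (0.548%) and 0 lower (0.0949%), and PPHLN1 3 higher (0.825%) and 0 lower (0.183%). TASOR2 had 1 higher (background 0.584%) and 9 lower, 3.83% of members against 1.36% of all genes. Only 7 members are left when a call must hold in the same direction against both controls: TASOR has 1 higher (background 0.226%) and 0 lower (0.0292%), TASOR2 1 higher (0.511%) and 4 lower (0.569%), MPP8 1 higher (0.445%) and 0 lower (0.0073%), and PPHLN1 3 higher (0.767%) and 0 lower (0.117%). They are JHDM1D-AS1, PAXIP1-AS2, ZNF571-AS1, TMCC1-AS1, LIPE-AS1, CTBP1-AS2 and ATP6V0E2-AS1.

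**Figure D2:**
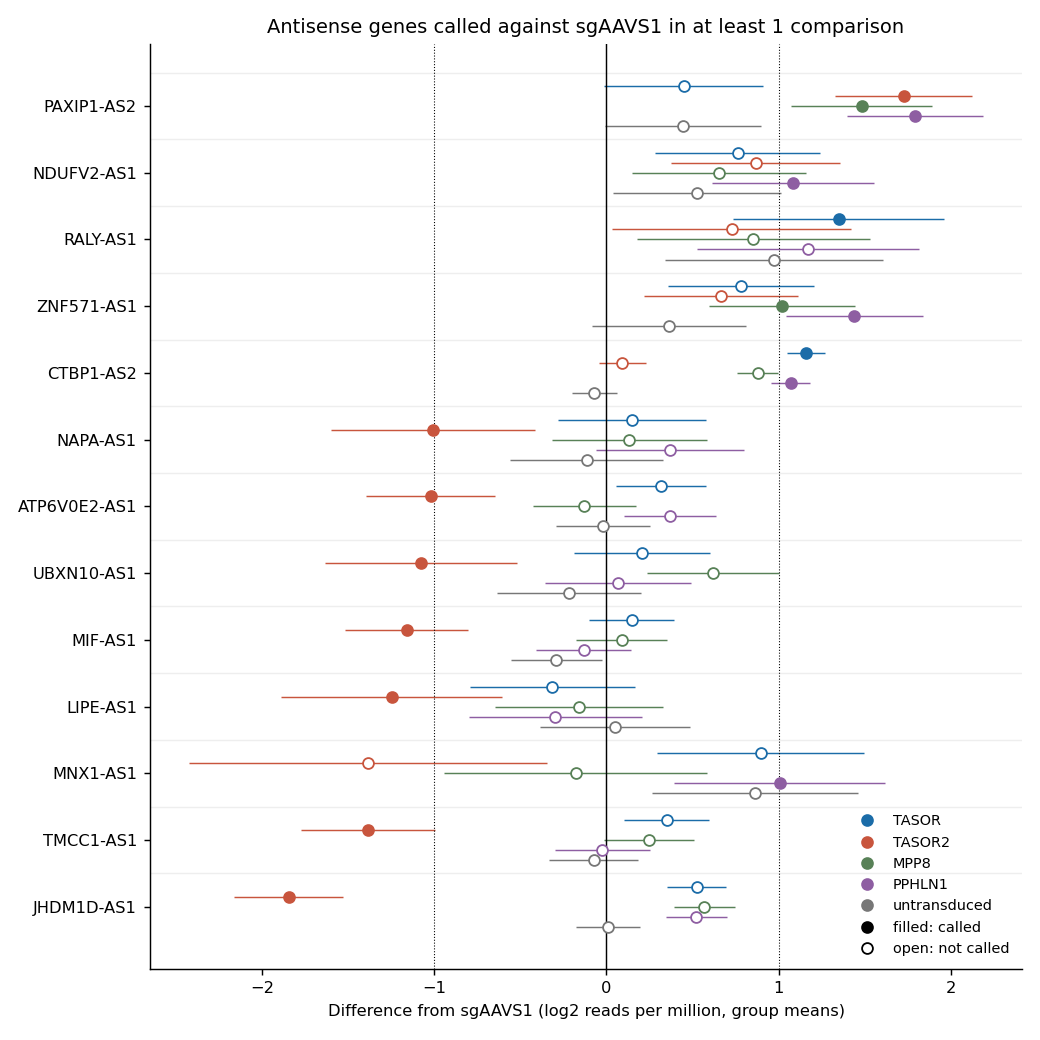
Difference from sgAAVS1 (log2 units, horizontal axis) with its 95% counting interval, in TASOR, TASOR2, MPP8, PPHLN1 and untransduced cells, for the 13 antisense genes called in at least 1 of these comparisons. Filled points were called, and 7 of the filled TASOR2 points lie at or below -1, from -1.85 (JHDM1D-AS1) to -1.01 (NAPA-AS1).

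The start regions of the 6 members with the largest differences against both controls are shown to set the genes beside each other in sequence. Each is a RefSeq window on GRCh38.p14 of 300 bases, plus strand, from 250 bases before the annotated start to 50 bases from it on. Such a window exists for 186 of the 235 members. Windows were searched on both strands for TATAAA (the TATA box), for CCAAT (the CCAAT box), for CCGCCC (a GC box), for CCGGAAGT (an ETS factor motif) and for the motifs of NRF1, of YY1 and of interferon response elements. Capitals mark matches to CCGCCC or CCAAT on either strand, the 2 motifs found in these windows, and neighbouring matches to CCGCCC overlap in CTBP1-AS2.
JHDM1D-AS1, chr7:140177011-140177310, 2 matches to CCGCCC.
JHDM1D-AS1: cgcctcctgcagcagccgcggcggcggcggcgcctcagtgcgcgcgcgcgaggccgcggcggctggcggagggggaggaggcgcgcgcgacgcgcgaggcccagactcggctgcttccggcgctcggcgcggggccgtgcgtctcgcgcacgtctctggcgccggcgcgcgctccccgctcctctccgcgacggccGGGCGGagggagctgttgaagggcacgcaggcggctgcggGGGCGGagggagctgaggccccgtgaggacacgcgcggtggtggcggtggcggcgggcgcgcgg
TMCC1-AS1, chr3:129893621-129893920, 4 matches to CCGCCC.
TMCC1-AS1: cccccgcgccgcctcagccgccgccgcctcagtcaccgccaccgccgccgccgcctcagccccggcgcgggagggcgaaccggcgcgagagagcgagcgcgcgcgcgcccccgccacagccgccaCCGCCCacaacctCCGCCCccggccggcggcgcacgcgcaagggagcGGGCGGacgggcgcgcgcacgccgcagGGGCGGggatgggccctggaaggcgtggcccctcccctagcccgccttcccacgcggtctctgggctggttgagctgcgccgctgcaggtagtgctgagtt
CTBP1-AS2, chr4:1249190-1249489, 7 matches to CCGCCC.
CTBP1-AS2: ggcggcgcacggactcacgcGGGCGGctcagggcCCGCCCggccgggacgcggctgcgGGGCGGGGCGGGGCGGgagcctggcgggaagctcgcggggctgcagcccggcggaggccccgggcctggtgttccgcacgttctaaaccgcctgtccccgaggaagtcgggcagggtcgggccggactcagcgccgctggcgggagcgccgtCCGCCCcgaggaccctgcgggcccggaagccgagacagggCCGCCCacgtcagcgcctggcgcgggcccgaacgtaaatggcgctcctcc
PAXIP1-AS2, chr7:154928267-154928566, 3 matches to CCAAT.
PAXIP1-AS2: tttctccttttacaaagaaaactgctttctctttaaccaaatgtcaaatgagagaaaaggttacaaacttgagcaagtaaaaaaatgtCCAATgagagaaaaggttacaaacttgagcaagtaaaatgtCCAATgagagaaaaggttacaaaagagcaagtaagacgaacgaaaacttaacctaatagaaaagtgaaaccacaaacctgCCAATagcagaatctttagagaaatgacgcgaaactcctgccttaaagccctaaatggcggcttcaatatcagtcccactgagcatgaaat
LIPE-AS1, chr19:42396898-42397197, 2 matches to CCAAT.
LIPE-AS1: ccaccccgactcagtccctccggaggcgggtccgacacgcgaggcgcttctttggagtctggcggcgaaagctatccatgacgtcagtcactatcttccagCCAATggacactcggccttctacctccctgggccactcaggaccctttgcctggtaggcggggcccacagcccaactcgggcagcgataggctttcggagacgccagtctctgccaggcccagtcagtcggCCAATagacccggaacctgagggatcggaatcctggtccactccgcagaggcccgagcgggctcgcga
ZNF571-AS1, chr19:37548699-37548998, 1 match to CCAAT.
ZNF571-AS1: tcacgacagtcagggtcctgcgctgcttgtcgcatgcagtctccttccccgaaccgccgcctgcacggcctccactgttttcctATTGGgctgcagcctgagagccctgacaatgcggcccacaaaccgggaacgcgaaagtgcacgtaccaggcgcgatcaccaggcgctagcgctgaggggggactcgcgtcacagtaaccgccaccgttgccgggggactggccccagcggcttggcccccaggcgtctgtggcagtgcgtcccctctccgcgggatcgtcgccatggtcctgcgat

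The 3 windows with CCGCCC belong to genes that RefSeq calls divergent transcripts (KDM7A-DT, TMCC1-DT and CTBP1-DT) and hold 59, 49 and 46 CG dinucleotides, where the median of all 35116 windows is 14. PAXIP1-AS2 stands at the other end with 5 CG dinucleotides and 36.3% G and C, and its window repeats a stretch that contains CCAAT. LIPE-AS1 has 24 and ZNF571-AS1 29 CG dinucleotides. CCGCCC occurs in 45% of all windows, CCAAT in 34.6%, TATAAA in 11.5%, CCGGAAGT in 4.14%, the interferon response motif in 3.57%, the NRF1 motif in 1.24% and the YY1 motif in 1.2%. A match is a run of letters and not a binding site.

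JHDM1D-AS1 had the largest difference among the members called against sgAAVS1. It lies at chr7:140177261-140179640 on the plus strand of hg38, and its start is 226 bases from that of KDM7A, a histone demethylase gene read in the other direction. Its level was 5.35 in TASOR, 2.98 in TASOR2, 5.40 in MPP8, 5.35 in PPHLN1, 4.83 in untransduced and 4.83 in sgAAVS1 cells. Only the TASOR2 mean was below 4, and the other 3 knockdown means lay above both controls. The difference from sgAAVS1 was -1.85 ± 0.32 in TASOR2, with 0.52 in TASOR, 0.57 in MPP8 and 0.52 in PPHLN1 under the limit of 1. KDM7A had 7.36 in TASOR2 and 7.35 in sgAAVS1 cells, a difference of 0.01 ± 0.08. Within 250000 bases, TBXAS1, the thromboxane synthase gene, had 3.79 in TASOR, 1.73 in TASOR2, 3.41 in MPP8, 3.48 in PPHLN1, 2.26 in untransduced and 2.62 in sgAAVS1 cells, also lowest in TASOR2, and was called higher in TASOR (1.17 ± 0.33).

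TMCC1-AS1 (chr3:129893871-129918575, plus strand) starts 295 bases from TMCC1, which encodes a membrane protein of the endoplasmic reticulum. It had 4.22 in TASOR, 2.49 in TASOR2, 4.12 in MPP8, 3.85 in PPHLN1, 3.80 in untransduced and 3.88 in sgAAVS1 cells. TASOR2 again stood alone below the other 5 groups, at -1.39 ± 0.39 from sgAAVS1. TMCC1 differed by -0.01 ± 0.18 in the same cells. ATP6V0E2-AS1 (chr7:149867697-149880610, minus strand) crosses ATP6V0E2, a gene for a subunit of the vacuolar proton pump. Its levels were 4.02, 2.68, 3.57 and 4.07 in TASOR, TASOR2, MPP8 and PPHLN1 cells, 3.68 in untransduced and 3.70 in sgAAVS1 cells, and its difference of -1.02 ± 0.37 in TASOR2 was close to the limit. Without the GC trend of all genes it was -0.87 and not called. ATP6V0E2 differed by -0.19 ± 0.14.

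LIPE-AS1 (chr19:42397128-42652355, plus strand) is a long gene that runs across LIPE, the gene of hormone-sensitive lipase, and its neighbours. It had 2.0 in TASOR, 1.06 in TASOR2, 2.15 in MPP8, 2.01 in PPHLN1, 2.36 in untransduced and 2.31 in sgAAVS1 cells. TASOR2 was lowest, at -1.25 ± 0.64, and at -0.99 with quantile normalization, which is not a call. LIPE itself had 0 counted reads in all 6 groups, which allows up to 3 reads over a group.

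PAXIP1-AS2 (chr7:154928498-154949908, plus strand) was the one member called higher in TASOR2 against sgAAVS1. It ends inside PAXIP1, which encodes a protein of the DNA damage response and of a histone methyltransferase complex, and the 2 starts are 74586 bases apart. Its level was 2.45 in TASOR, 3.73 in TASOR2, 3.49 in MPP8, 3.80 in PPHLN1, 2.45 in untransduced and 2.0 in sgAAVS1 cells. The TASOR2, MPP8 and PPHLN1 means lay together above 3, and TASOR was level with untransduced cells. Differences from sgAAVS1 were 1.73 ± 0.40 in TASOR2, 1.48 ± 0.41 in MPP8 and 1.79 ± 0.39 in PPHLN1, with 0.45 in TASOR. Against untransduced cells they were 1.28 ± 0.39, 1.04 ± 0.40 and 1.35 ± 0.38 in TASOR2, MPP8 and PPHLN1 cells. PAXIP1 differed from sgAAVS1 by 0.19 in TASOR2, 0.01 in MPP8 and 0.10 in PPHLN1, and PAXIP1-AS1, the second antisense gene of this locus, by 0.08, 0.20 and 0.23, none of them called.

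ZNF571-AS1 (chr19:37548914-37587348, plus strand) lies in a cluster of zinc finger genes. Its level was 2.88 in TASOR, 2.76 in TASOR2, 3.11 in MPP8, 3.53 in PPHLN1, 2.46 in untransduced and 2.09 in sgAAVS1 cells, with all 4 knockdowns above both controls. It was called in MPP8 (1.02 ± 0.42) and PPHLN1 (1.44 ± 0.40) against sgAAVS1, and in PPHLN1 alone against untransduced cells (1.08 ± 0.40). With all groups centred on the median of all genes, the MPP8 difference was 0.88 and not called. ZNF571, the sense gene, had 2.71, 3.35, 2.94 and 3.18 in TASOR, TASOR2, MPP8 and PPHLN1 cells, 2.86 in untransduced and 2.69 in sgAAVS1 cells, and was not called. Of 9 tested neighbours within 250000 bases, 4 were called in PPHLN1 against sgAAVS1: CTD-3064H18.4, HKR1, ZNF527 and ZNF570. Calls of neighbours against untransduced cells were not made. CTD-3064H18.4 is read from the opposite strand, with its start 257 bases inside ZNF571-AS1, and had 0.61 in TASOR, -0.89 in TASOR2, 1.60 in MPP8, 2.12 in PPHLN1, -0.89 in untransduced and -1.77 in sgAAVS1 cells, so PPHLN1 and MPP8 were highest for both transcripts of this start region. HKR1 differed by 1.03 ± 0.52 in MPP8 and 1.45 ± 0.49 in PPHLN1, ZNF527 by 1.25 ± 0.57 and 1.04 ± 0.59, and ZNF570 by 1.15 ± 0.62 and 1.43 ± 0.60. ZNF527 was also called in TASOR2, with its largest difference, 1.41 ± 0.56. Untransduced cells also lay above sgAAVS1, by 0.62 ± 0.53 in HKR1, 0.11 in ZNF527 and 0.32 in ZNF570. The knockdown differences of these genes from untransduced cells were therefore smaller than those from sgAAVS1.

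CTBP1-AS2 (chr4:1249300-1288291, plus strand) is the most precisely counted of the 7. It starts 653 bases from CTBP1, a transcriptional corepressor gene, on the opposite strand, so that the first bases of both genes overlap. It had 7.0 in TASOR, 5.94 in TASOR2, 6.72 in MPP8, 6.92 in PPHLN1, 5.78 in untransduced and 5.85 in sgAAVS1 cells. TASOR, MPP8 and PPHLN1 formed a high group, and TASOR2 lay with the controls. It was called higher in TASOR (1.16 ± 0.11) and PPHLN1 (1.07 ± 0.11), while 0.88 in MPP8 and 0.09 in TASOR2 did not reach the limit. Relative to the median of all genes the values were 0.97 in TASOR and 0.88 in PPHLN1, just under the limit. CTBP1 itself had 7.77 in TASOR, 7.66 in TASOR2, 7.77 in MPP8, 7.81 in PPHLN1, 7.56 in untransduced and 7.62 in sgAAVS1 cells, and across the 6 group means the correlation of the pair was 0.96, although CTBP1 moved by at most 0.20 from sgAAVS1.

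**Figure D3:**
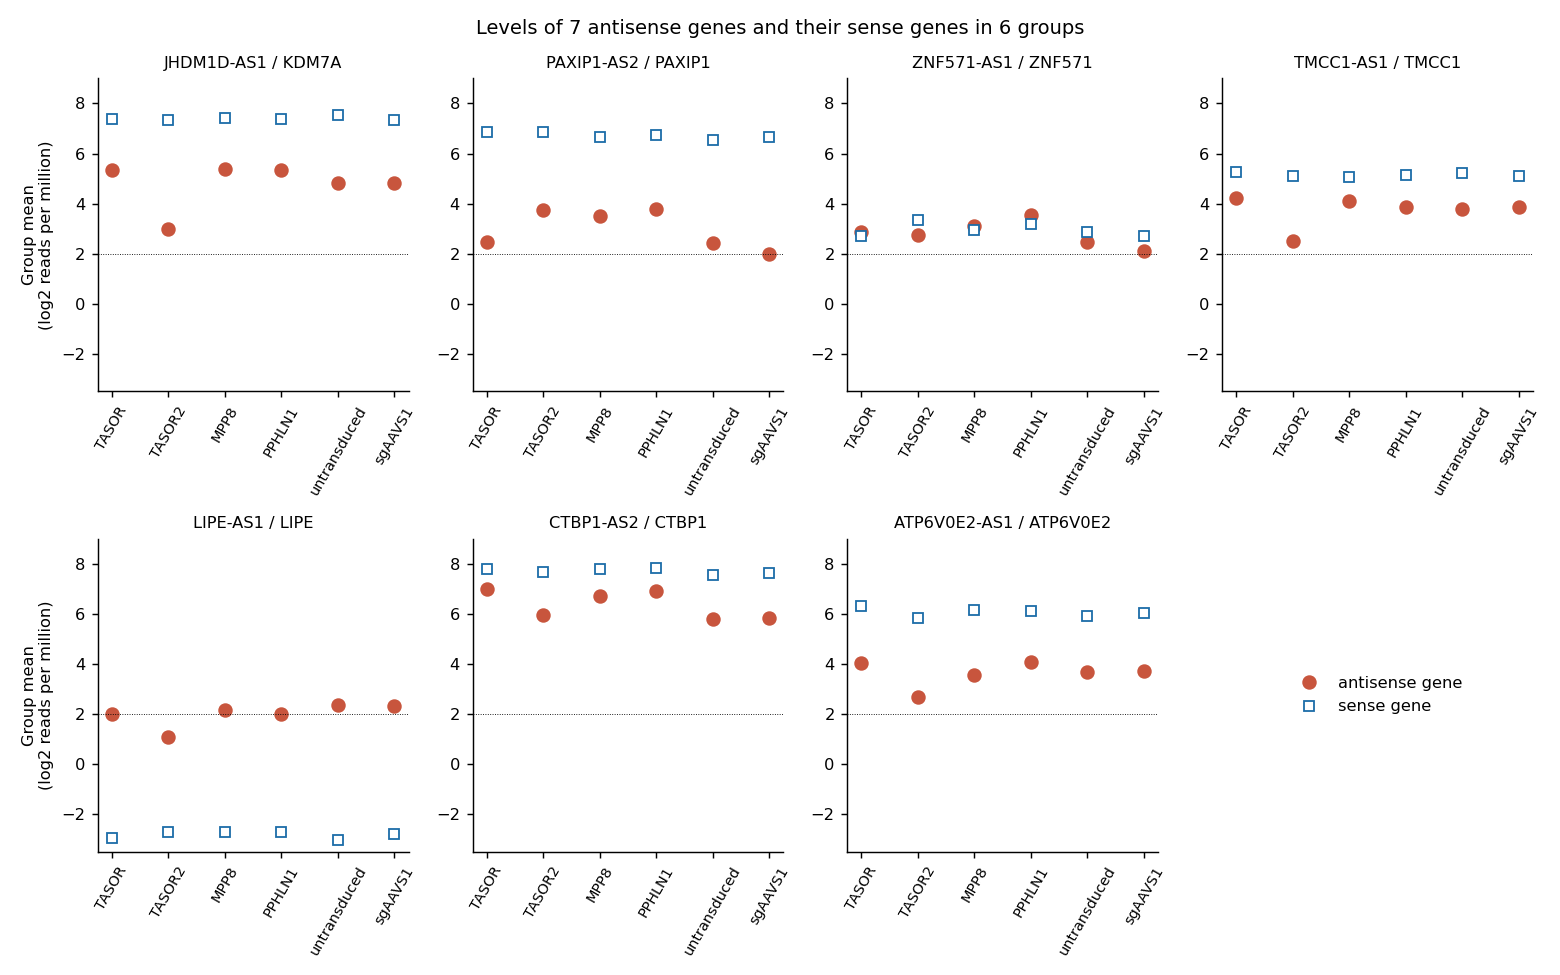
Group mean (log2 RPM, vertical axis) of 7 antisense genes (filled circles) and their sense genes (open squares) in the 6 groups on the horizontal axis. The dotted line is the limit of 2. JHDM1D-AS1 had 2.98 in TASOR2 and 4.83 in sgAAVS1 cells while KDM7A had 7.36 in TASOR2 and 7.35 in sgAAVS1 cells.

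A further 6 members were called against sgAAVS1 but not against untransduced cells. RALY-AS1, opposite a gene for an RNA-binding protein, was higher in TASOR (2.16 against 0.81 in sgAAVS1, a difference of 1.35 ± 0.61). Its mean in untransduced cells was 1.78, and sgAAVS1 was the lowest of the 6 groups. NDUFV2-AS1 (2.83 against 1.75, 1.08 ± 0.47) and MNX1-AS1 (2.04 against 1.03, 1.01 ± 0.61) were higher in PPHLN1 than in sgAAVS1, with 2.28 and 1.89 in untransduced cells. With median centring these differences were 0.90 for NDUFV2-AS1 and 0.82 for MNX1-AS1, and neither was called. RALY-AS1 was at 1.17 and lost its call because neither centred mean was above 2. Over the 6 groups RALY-AS1 had a mean of 1.65 and MNX1-AS1 1.23. The groups above 2 that let them in include those in which they were called higher. Their calls are therefore not independent of the choice of members. In TASOR2, MIF-AS1 (2.79 against 3.96, -1.16 ± 0.36), UBXN10-AS1 (1.5 against 2.58, -1.08 ± 0.56) and NAPA-AS1 (1.36 against 2.36, -1.01 ± 0.59) were lower than in sgAAVS1. MIF-AS1, UBXN10-AS1 and NAPA-AS1 had 3.66, 2.36 and 2.25 in untransduced cells, also above TASOR2 but by less than 1. Of the exon bases, 52.2% in NAPA-AS1 and 46.5% in MIF-AS1 face exons on the opposite strand, so their counts depend on how strand was treated.

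TASOR against TASOR2 separated more antisense genes than any comparison with a control. TASOR was higher in 22 members (9.36%, against 2.96% of all genes) and lower in 1 (0.426%, against 0.518%), PAXIP1-AS2 with -1.28 ± 0.40. With quantile normalization 7 members were higher (2.98%), against 0.883% of all genes higher and 1.22% lower, and with a limit of 3 on level 10 of 180 were higher (5.56%), against 1.75%. The largest were JHDM1D-AS1 (5.35 in TASOR and 2.98 in TASOR2 cells, 2.37 ± 0.32), WWC2-AS2 (2.04 and 0.15, 1.89 ± 0.87), ITPR1-AS1 (2.44 and 0.70, 1.74 ± 0.73), TMCC1-AS1 (4.22 and 2.49, 1.74 ± 0.39), PCOLCE-AS1 (2.31 and 0.76, 1.55 ± 0.72) and C9orf173-AS1 (3.50 and 2.12, 1.39 ± 0.46). WWC2-AS2 was not called with median centring (1.80) or quantile normalization (1.29), nor PCOLCE-AS1 with quantile normalization (0.98). Over the 6 groups WWC2-AS2, ITPR1-AS1 and PCOLCE-AS1 had means of 1.73, 1.90 and 1.97, and TASOR was a group above 2 that let them in. TASOR2 was the lowest of the 6 groups in 21 of these 22, the exception being CTBP1-AS2, and TASOR lay above both controls in 20. The 22 were picked because TASOR lay at least 1 above TASOR2, so these counts follow largely from the choice. They were not made for all genes called. Of the 22 genes, 12 (54.5%) start within 1000 bases of their sense gene, against 44.7% of all members. WWC2-AS2 starts 94 bases from WWC2 and ITPR1-AS1 185 bases from ITPR1, the gene of a calcium channel of the endoplasmic reticulum. In 21 of the pairs the sense gene was also above 2 in some group, and its TASOR minus TASOR2 difference spanned -0.32 to 0.73 with a median of 0.11. No sense gene of the 22 was called, where 6 sense genes were called among all 206 pairs with a sense gene above 2 in some group.

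The share called depends on level. Among genes with a mean of 2 or less, TASOR was called higher than TASOR2 in 22.2% of members and 17% of other genes; above 2 and up to 3, in 17.3% and 13.5%; above 3 and up to 4, in 9.09% and 7.2%; above 4 and up to 6, in 3.57% and 1.68%; and above 6, in 3.85% (1 of 26 members, CTBP1-AS2) and 0.132%. In each band the share was higher among members, and in genes of either kind calls were most frequent at means of 3 or below. From low to high level these are 4 of 18, 9 of 52, 5 of 55, 3 of 84 and 1 of 26 members. A few genes thus set the gap in each band, and most shares lie near those of other genes. In the lowest band a gene entered only through a group above 2, so its calls are not independent of that limit. The median difference in these 5 bands, from low to high level, was 0.68, 0.49, 0.57, 0.31 and 0.27 for members and 0.46, 0.34, 0.29, 0.11 and 0.01 for other genes. The gap in each band was below that of 0.34 between the members and all genes over all levels, and it was smallest above 2 and up to 3. For genes lower in TASOR2 than in sgAAVS1 the bands did not all point one way: the share was 5.56% of members and 4.45% of other genes at 2 or less, 3.85% and 4.69% above 2 and up to 3, 5.45% and 1.2% above 3 and up to 4, 1.19% and 0.325% above 4 and up to 6, and 0% and 0.0733% above 6. The members' shares here rest on 1, 2, 3, 1 and 0 genes.

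MPP8 against PPHLN1, the subunits of both complexes, gave 0 members higher (0.161% of all genes) and 1 lower (0.102%). MNX1-AS1, divergent from the homeobox gene MNX1, had 0.85 in MPP8 and 2.04 in PPHLN1 cells, a difference of -1.19 ± 0.73, which median centring left uncalled at -1.14. Its PPHLN1 mean also let it pass the limit of 2, so this call is not independent of the choice of members. Its mean was lowest of all in TASOR2, at -0.35, 1.38 below sgAAVS1, which was not called because neither of these means was above 2.

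GC content moved with the TASOR2 values. Across genes, Spearman's rho of the TASOR2 minus sgAAVS1 difference with the GC content of the transcript was -0.26 in 234 members and -0.60 in 13328 other genes, given as a description of genes that share these libraries. In TASOR it was 0.17 in members and 0.15 in other genes. Among genes of at most 40% GC the TASOR2 median was -0.01 in 19 members and 0.33 in 2097 other genes, and among genes above 60% it was -0.32 in 24 members and -0.13 in 2092 others. In each of 6 GC bands the members' median was below that of the other genes. The members and all tested genes had nearly the same median GC content, 48.7% and 48.8%. With the GC trend of all genes removed, 5 of the 8 TASOR2 calls against sgAAVS1 were kept, and ATP6V0E2-AS1, NAPA-AS1 and MIF-AS1 were no longer called. The part of GC content or library composition in the lower TASOR2 values was not tested.

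**Figure D4:**
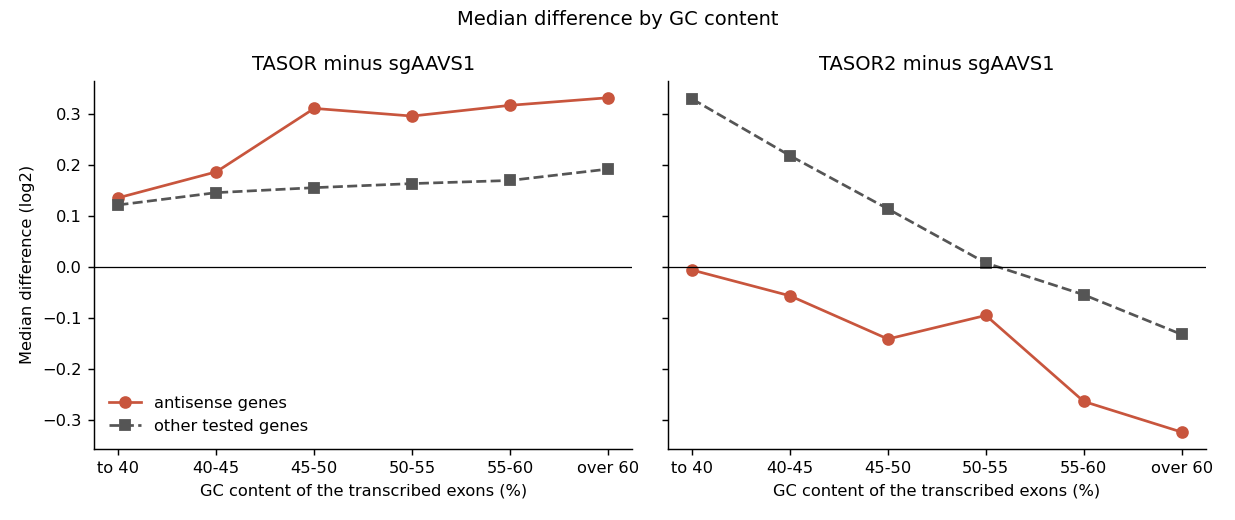
Median difference from sgAAVS1 (log2 units, vertical axis) in TASOR (left) and TASOR2 (right) by GC content of the exons (horizontal axis, percent), for antisense genes (circles) and other tested genes (squares). In TASOR2 the antisense genes lie at -0.01 in the lowest and -0.32 in the highest GC band, and the other genes at 0.33 and -0.13.

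Sense genes were compared with their antisense partners in 206 pairs in which the sense gene had a mean above 2 in some group. In no comparison with sgAAVS1, and neither between TASOR and TASOR2 nor between MPP8 and PPHLN1, were both genes of a pair called (0 in the same direction and 0 in opposite ones). Calls were few, at most 22 antisense and 6 sense genes of the 206 pairs, in TASOR against TASOR2. With so few calls little or no overlap would arise in unrelated genes too, so its absence says little about the pairs. Across the pairs the Pearson correlation of the 2 differences from sgAAVS1 was 0.01 in TASOR, 0.07 in TASOR2, -0.09 in MPP8, 0.11 in PPHLN1 and 0.05 in untransduced cells, a description over 206 pairs that share libraries. In TASOR2 the median difference over these pairs was -0.15 for antisense and 0.12 for sense genes. The 50 divergent pairs had -0.27 for antisense and 0.17 for sense genes, and in 13 of the 50 the 2 differences had the same sign. The 155 overlapping pairs had -0.13 and 0.11, with the same sign in 77. In TASOR the divergent pairs had 0.32 for antisense and 0.14 for sense genes.

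Sense genes called on their own were few. RAB30 and KIAA1614 were higher and RHPN1 lower in TASOR2, and UBL7 was lower in PPHLN1, each against sgAAVS1 and each with an antisense gene that was not called. Between TASOR and TASOR2, PAX8, SNAI3, CCDC183, RHPN1 and ELFN1 were higher in TASOR and KIAA1614 lower, again without a call of the antisense gene. Over the 6 group means the correlation of an antisense gene with its sense gene had a median of 0.16 and quartiles of -0.27 and 0.56 in the 232 pairs.

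**Figure D5:**
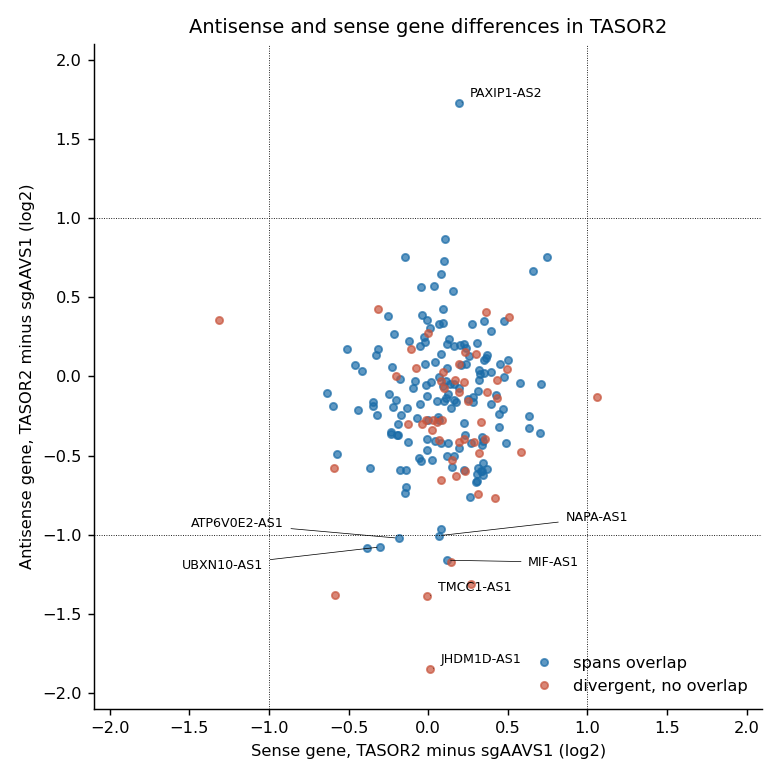
TASOR2 minus sgAAVS1 (log2 units) of the sense gene (horizontal axis) and of the antisense gene (vertical axis) in 206 pairs, by whether the gene spans overlap. Dotted lines mark 1 and -1. The named antisense genes were called, and their sense genes all lie between the dotted lines, with KDM7A at 0.01 beside JHDM1D-AS1 at -1.85.

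Antisense genes were also grouped by their sense gene. Of 10 members opposite zinc finger genes, a family that HUSH is known to bind, ZNF571-AS1 was called in MPP8 and PPHLN1 against sgAAVS1 and the other 9 in neither. Over all genes 0.73% were higher in MPP8 and 1.28% in PPHLN1, and a single gene sets the share of these 10. The group's medians were 0.37 in TASOR, 0.00 in TASOR2, 0.26 in MPP8 and 0.40 in PPHLN1, against 0.16, 0.08, 0.12 and 0.17 over all genes. In untransduced cells the group's median was 0.26, with 10 of 10 members above sgAAVS1, against 0.04 over all genes, so the shift between the controls was as large as the MPP8 value. ZNF436-AS1, the highest of them, had 5.18 in TASOR, 4.43 in TASOR2, 5.21 in MPP8, 5.31 in PPHLN1, 5.13 in untransduced and 4.94 in sgAAVS1 cells. ZNF213-AS1 and ZSCAN16-AS1 followed with means of 4.71 and 4.64 over the groups. On chromosome 19, where many zinc finger genes lie in clusters, 14 members held 1 higher call in MPP8, 1 in PPHLN1 (both ZNF571-AS1) and 2 lower calls in TASOR2 (LIPE-AS1 and NAPA-AS1). Over all genes 0.73%, 1.28% and 0.803% were so called, and with 14 members on this chromosome 1 or 2 genes set the share. TMEM147-AS1, with a mean of 6.56, and A1BG-AS1, with 4.94, also lie there and were not called.

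HLA-F-AS1, the sole member opposite a gene of antigen presentation or the interferon response, had 4.08 in TASOR, 3.78 in TASOR2, 4.01 in MPP8, 4.31 in PPHLN1, 4.27 in untransduced and 4.04 in sgAAVS1 cells and was called in no comparison. A total of 6 members matched prefixes of homeobox families, but PAXIP1-AS1, PAXIP1-AS2 and PAXBP1-AS1 did so by letters alone. The other 3, LHX4-AS1 (mean 6.97), PAX8-AS1 (6.94) and HOXB-AS1, were not called. The prefixes leave out other homeobox genes such as MNX1. Its antisense gene MNX1-AS1 was called in PPHLN1 against sgAAVS1 and in MPP8 against PPHLN1. GENCODE gives the locus of LHX4-AS1 to the protein-coding gene ACBD6, so this level may be that of a coding transcript. A chosen list of antisense RNAs with published functional work held 28 members, such as OIP5-AS1, TP73-AS1 and GABPB1-AS1. Of these, 0 were called against sgAAVS1 in any group, where at most 2.98% of members and 1.28% of all genes were called in 1 direction. The list is not a survey of published work, so this count does not extend to studied antisense RNAs outside it. Of these 28, GAS6-AS1 and USP2-AS1 were higher in TASOR than in TASOR2, a comparison that called 9.36% of members and 2.96% of all genes. Their median difference was 0.18 in TASOR and -0.12 in TASOR2, against 0.16 and 0.08 over all genes. GABPB1-AS1 had 7.29 in TASOR2 and 7.66 in sgAAVS1 cells, and TP73-AS1 7.60 and 7.71.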

How the data were processed

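Total RNA from K562 cells was depleted of ribosomal RNA and made into strand-specific libraries, per the labels' protocols. Cutadapt, Bowtie2 and genome build hg38 are named in the submitters' processing notes; no source used here gives their versions, the counter, the annotation or whether strand or exons entered the counting. The deposited table has 35805 rows and 6 group columns, without single libraries. Its untransduced column holds mean log2 RPM, per the file headers and from the values. The other 5 deposited columns are a score, found to be the quotient of a group's mean log2 RPM and that of untransduced cells, and were multiplied back. The scale was checked on low values: all of them (100% in each group, tolerance 0.001) were means over log2 whole reads, with 0 reads set to 0.9, over 3 libraries for sgAAVS1 and 2 elsewhere; the labels list 3 for TASOR2, and which 2 entered is unknown. The value of 1 read gave geometric mean depths per library: TASOR 6945068 reads, TASOR2 5857938, MPP8 5925919, PPHLN1 5963709, untransduced cells 7406967 and sgAAVS1 6202797.

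Of rows with the same symbol, the one with the highest mean was used (87 dropped). The test planned for single libraries could not be run, so a rule of size with a Poisson counting interval was used, checked on simulated data, over 13698 genes with at least 1 group mean above 2. Members, gene lists and the rule for named genes were chosen with earlier results of these data known. The rule took the 8 members with the highest mean, up to 6 called members per comparison and direction, the members nearest the limit of 2, the 3 highest of each list, and the sense genes of these and the targeted genes; neighbours, called sense genes, GAS6-AS1 and USP2-AS1 were named after their values were seen. Some genes that the rule took are not reported here. Sense genes were found by symbol, and positions, exons and GC content came from GENCODE 29 and names and start windows from RefSeq (GRCh38.p14). Alternatives were median centring, quantile normalization, untransduced cells as the control, limits of 0 and 3 and no limit on level, a call size of 0.5, removal of the GC trend, and, chosen after seeing the data, members without opposite-strand exon overlap. Python 3.11.15 was used with numpy 2.4.6, pandas 2.3.3, scipy 1.17.1, statsmodels 0.14.6 and matplotlib 3.10.9.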

Additional observations from a re-analysis of the deposited data

How the results depend on the processing

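No paired analysis was possible because the table holds group means and no single libraries; leaving out a replicate was not run for the same reason. No called member changed direction under any alternative tried.

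With median centring the counts of members called higher against sgAAVS1 were 0 in TASOR, 1 in MPP8 and 2 in PPHLN1, those against both controls 0, 0 and 1, and 0 members were lower in MPP8 than in PPHLN1. Against sgAAVS1 these are 0%, 0.426% and 0.851% of members, beside 0.27%, 0.518% and 0.781% of all genes. Quantile normalization gave 1 higher in TASOR, 1 in MPP8, 2 in PPHLN1 and 3 lower in TASOR2 against sgAAVS1; against both controls 0 higher in MPP8, 1 in PPHLN1 and 2 lower in TASOR2; 7 higher in TASOR than in TASOR2 (2.98%, with all genes at 0.883% higher and 1.22% lower), with a median relative to all genes of 0.18 against 0.34 as deposited; and 0 lower in MPP8 than in PPHLN1. Of all genes, quantile normalization called 0.256% higher in TASOR, 0.504% in MPP8 and 0.73% in PPHLN1, and 0.555% lower in TASOR2, against sgAAVS1. Untransduced cells as the control gave 1 higher in TASOR, 1 in MPP8 and 3 in PPHLN1. With the GC trend removed, TASOR2 had 2 higher and 4 lower (0.855% and 1.71%, against 0.804% and 0.612% of all genes).

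A limit of 3 on level left 1 higher in TASOR, 3 in PPHLN1 and 4 lower in TASOR2, 10 higher in TASOR than in TASOR2 and 0 lower in MPP8 than in PPHLN1. Of 180 members the first 4 counts are 0.556%, 1.67%, 2.22% and 5.56%, against 0.272%, 0.897%, 0.329% and 1.75% of all genes. A limit of 0 gave 15 higher and 1 lower in TASOR, 8 and 18 in TASOR2, 10 and 1 in MPP8, 16 higher in PPHLN1 and 5 higher in untransduced cells; against both controls 6 higher and 1 lower in TASOR, 4 and 14 in TASOR2, 4 and 1 in MPP8 and 7 higher in PPHLN1; between TASOR and TASOR2, 49 higher and 6 lower; and 5 higher and 6 lower in MPP8 than in PPHLN1. Of 358 members at this limit, 4.19% were higher in TASOR (1.95% of all genes), 2.23% higher and 5.03% lower in TASOR2 (2.26% and 2.03%), 2.79% higher in MPP8 (1.65%), 4.47% in PPHLN1 (2.88%), 1.4% in untransduced cells (1.38%) and 13.7% in TASOR against TASOR2 (5.23%). Lower members were 0.279% in TASOR (0.341% of all genes) and 0.279% in MPP8 (0.316%). No limit gave 20 higher and 1 lower in TASOR, 10 and 19 in TASOR2, 11 and 1 in MPP8, 20 and 1 in PPHLN1 and 5 and 2 in untransduced cells. Of 1023 members without a limit, 1.96% were higher in TASOR (1.11% of all genes), 1.86% lower in TASOR2 (0.988%) and 1.96% higher in PPHLN1 (1.48%). A call size of 0.5 gave 30 higher in TASOR, 10 higher and 33 lower in TASOR2, 12 higher in MPP8, 32 in PPHLN1 and 12 in untransduced cells; against both controls 9 higher in TASOR, 2 higher and 27 lower in TASOR2, 6 higher in MPP8 and 9 in PPHLN1; between TASOR and TASOR2, 87 higher and 3 lower; and 3 higher and 7 lower in MPP8 than in PPHLN1. These are 12.8% higher in TASOR (5.34% of all genes), 4.26% higher and 14% lower in TASOR2 (6.39% and 4.96%), 5.11% higher in MPP8 (3.33%), 13.6% in PPHLN1 (5.96%), 5.11% in untransduced cells (2.3%) and 37% in TASOR against TASOR2 (13.7%).

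Members without opposite-strand exon overlap, chosen after seeing the data, held 1 higher in TASOR, 0 higher and 3 lower in TASOR2, 0 higher in MPP8 and 1 in PPHLN1 against sgAAVS1; against both controls 0 higher in TASOR, 0 higher and 2 lower in TASOR2, 0 higher in MPP8 and 0 in PPHLN1; and between TASOR and TASOR2, 9 higher and 0 lower. There were 65 such members, of which 1.54% were higher in TASOR (0.548% of all genes) and 1.54% in PPHLN1 (1.28%). A share of 4.62% was lower in TASOR2 (0.803% of all genes), and 13.8% were higher in TASOR than in TASOR2 (2.96%). Divergent pairs alone had antisense and sense correlations of 0.12 in TASOR and 0.30 in PPHLN1 by Pearson's r, but -0.06 and 0.08 by Spearman's rho. The members' median relative to all genes moved by at most 0.1 in every other comparison and alternative. The relative median lay around 0 in MPP8 (-0.05 to 0.05) and PPHLN1 (-0.03 to 0.06), with no stable sign. Spread between guides and replicates is not known. Depth limits members near a level of 2: LIPE-AS1 had ± 0.64 in TASOR2, against ± 0.11 for CTBP1-AS2 in TASOR.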
